A study of Mus musculus with 4 samples.

Results

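Genes for heat shock proteins and for cold-inducible RNA-binding proteins were examined in peritoneal macrophages of mice that had or had not received microcurrent stimulation (MCS). The genes were chosen by name, and 10 of 10 were found among the 15298 genes measured. Of these, 8 encode heat shock proteins or their partners (*Hspa1a*, *Hspa1b*, *Hspa8*, *Hsp90aa1*, *Hsph1*, *Hspd1*, *Hspe1* and *Dnajb1*), and 2 encode RNA-binding proteins that are induced by mild cold (*Cirbp* and *Rbm3*). RNA of sorted CD11b+ F4/80+ Ly6G− peritoneal macrophages from female BALB/c mice aged 6 weeks was sequenced in 4 libraries, control at ZT2, control at ZT14, MCS at ZT2 and MCS at ZT14, where ZT is zeitgeber time in hours after lights on. The MCS mice received 300 µA at 400 Hz for 15 min through pads on abdomen and back at ZT2, and their cells were collected right afterwards (ZT2) or 12 h later (ZT14). Control mice wore the same pads and were anaesthetised with 1.5% isoflurane like the MCS mice, but no current was applied. There is 1 library for each condition, and how many mice went into one is not stated in the study's methods, so no difference below has a replicate check.

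Heat shock proteins are molecular chaperones, which bind unfolded stretches of other proteins and help them to fold or to be degraded. When unfolded proteins accumulate, as in heat, heat shock factor 1 is released from chaperones and activates genes that carry heat shock elements in their promoters. CIRBP and RBM3 respond to temperature in the opposite direction, being raised by mild cooling and lowered by warming, and in several tissues of mice their transcripts follow the daily rhythm of body temperature, which in mice is higher in the dark than in the light phase.

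Values are CPM (reads of a gene scaled to a common library total) as normalized by the authors, and the whole reads behind them could be recovered, 8658191 at ZT2 and 9217493 at ZT14 in control, and 8365590 at ZT2 and 9953243 at ZT14 in MCS. One read equaled between 0.102 and 0.116 CPM. Ratios are log2 ratios after adding 0.1 CPM to each value, so they slightly understate the change of a gene with few reads. Their 95% intervals are Clopper-Pearson (exact binomial) intervals of the share of a gene's reads in one library of a pair, which cover counting error only and compare libraries, not groups of mice. A gene was called when its log2 ratio passed 1 in either direction (2-fold) with a log2 mean of both libraries above 0, and a threshold of 1.5-fold was read beside it.

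Levels of different genes were compared per kilobase (kb) of the longest coding transcript in GENCODE vM21. On that scale the constitutive HSP70 gene *Hspa8* was the most abundant, with a mean over the 4 libraries of 572 CPM per kb, followed by the HSP90 gene *Hsp90aa1* with 71.6 CPM per kb. *Rbm3* with a mean of 41.3, *Hspd1* with 36.2 and *Hspe1* with 30.0 CPM per kb formed the next group, and the 4 libraries of each overlapped in range with those of its neighbour in this order. *Cirbp* with a mean of 15.5, *Hsph1* with 11.2 and *Dnajb1* with 11.0 CPM per kb overlapped in the same way. The stress-inducible HSP70 genes were lowest, *Hspa1a* at a mean of 2.81 and *Hspa1b* at 2.63 CPM per kb, and the ranges of these last genes overlapped each other but those of no other gene of the set.

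*Hspa1a* and *Hspa1b* encode the stress-inducible HSP70, which is classically induced by heat shock factor 1. *Hspa1a* had 3.46 CPM at ZT2 against 12.1 CPM at ZT14 in control, and 4.87 CPM at ZT2 against 12.9 CPM at ZT14 in MCS. Both ZT14 libraries were thus above both ZT2 libraries, with log2 ratios of ZT14 to ZT2 of 1.77 in control (95% interval 1.21 to 2.44) and 1.38 in MCS (0.89 to 1.94). *Hspa1b* had 3.35 CPM at ZT2 against 13.6 CPM at ZT14 in control, and 4.06 CPM at ZT2 against 8.49 CPM at ZT14 in MCS. It was likewise higher in both ZT14 libraries, by log2 ratios of 1.99 in control (1.43 to 2.66) and 1.05 in MCS (0.48 to 1.68). Between MCS and control, *Hspa1a* differed by less than counting error at ZT2 (log2 ratio 0.48, -0.22 to 1.22) and at ZT14 (0.09, -0.29 to 0.47). *Hspa1b* also differed by less than counting error at ZT2 (0.27, -0.47 to 1.04), but at ZT14 it was lower in MCS, with a log2 ratio of -0.68 (-1.10 to -0.27). These values rest on 29 to 126 reads per gene and library.

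The pair is a near-identical copy on chromosome 17, *Hspa1b* at chr17:34956436-34959238 and *Hspa1a* at chr17:34969190-34972156 (GRCm38, both on the minus strand), with 9951 bases between them. Of all stretches of 150 bases, the read length, in the *Hspa1a* transcript, 39.7% occurred unchanged in the transcript of another gene, and for *Hspa1b* this share was 40.5%, so how their reads were divided between the copies is uncertain. The sum of both genes does not depend on that division. It was 6.81 CPM at ZT2 against 25.7 CPM at ZT14 in control, and 8.93 CPM at ZT2 against 21.4 CPM at ZT14 in MCS. The sum was therefore higher at ZT14 in both arms, by log2 ratios of 1.90 (1.498 to 2.35) in control and 1.25 (0.87 to 1.65) in MCS. Its ratio of MCS to control was 0.39 (-0.12 to 0.91) at ZT2 and -0.27 (-0.54 to 0.01) at ZT14, so neither interval excluded no change, though the latter only just reached 0. The difference between these ratios was -0.65 (-1.21 to -0.09, a normal approximation of counting error), that is, the step from ZT2 to ZT14 was smaller in the MCS libraries.

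Promoter windows from RefSeq (GRCm38.p6, 250 bases before to 50 after a gene's start) were found for 7 of the 10 genes, and *Hspa8*, *Hsp90aa1* and *Rbm3* had none. The windows were searched on both strands for 2 adjoining units of the heat shock element (GAANNTTC or TTCNNGAA) and for 3 units (GAANNTTCNNGAA or TTCNNGAANNTTC), where each match of the longer motif holds overlapping matches of the shorter one. At least 1 match of 2 units occurred in 15.1% and of 3 units in 0.603% of all 32851 windows. The 250 bases before the start of *Hspa1a* (chr17:34972157-34972406) and *Hspa1b* (chr17:34959239-34959488, both minus strand) are shown because both genes had the largest steps between ZT2 and ZT14. They overlap no exon in GENCODE, and capitals mark the match of 2 units.
Hspa1a: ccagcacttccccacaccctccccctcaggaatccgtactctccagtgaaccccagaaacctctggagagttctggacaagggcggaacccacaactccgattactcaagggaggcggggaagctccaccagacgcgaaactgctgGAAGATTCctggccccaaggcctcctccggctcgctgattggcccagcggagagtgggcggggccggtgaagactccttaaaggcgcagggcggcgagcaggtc
Hspa1b: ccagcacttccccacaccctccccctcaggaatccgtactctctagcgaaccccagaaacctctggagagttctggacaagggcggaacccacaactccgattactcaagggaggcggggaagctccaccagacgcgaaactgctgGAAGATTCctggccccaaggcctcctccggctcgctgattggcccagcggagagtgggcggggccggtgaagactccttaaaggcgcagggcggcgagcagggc
Both sequences hold 1 match of 2 units at the same place and none of 3 units. They differ at 3 of 250 positions, C44T, T47C and T249G, with the base of *Hspa1a* first and positions counted from 1 at the first base shown. A match describes these letters only and is not evidence of binding.

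**Figure D1:**
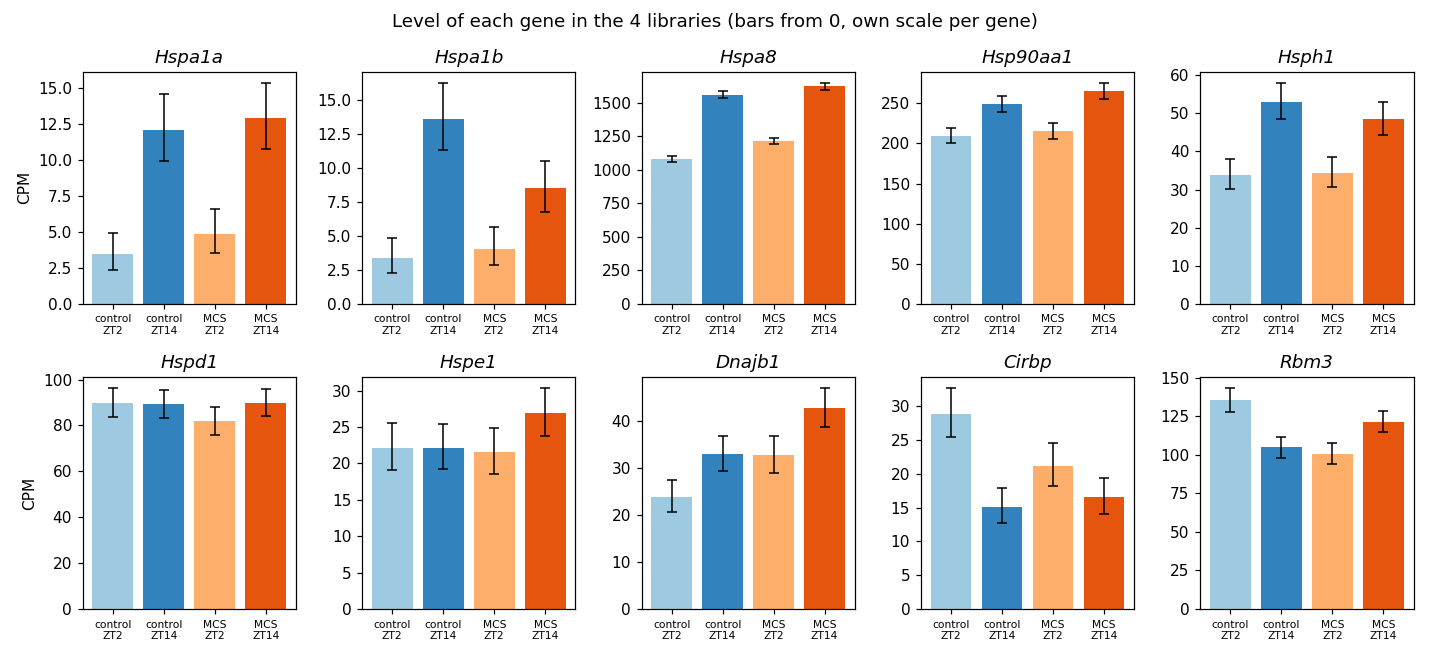
Level of each of the 10 genes in CPM (vertical axis, bars from 0, a separate scale for each gene) in the 4 libraries, with 1 library per bar and exact Poisson 95% intervals of the recovered reads as error bars. *Hspa1a*, *Hspa1b*, *Hspa8*, *Hsp90aa1* and *Hsph1* were higher in both ZT14 libraries than in both ZT2 libraries, *Cirbp* was lower in both, and *Dnajb1* was at nearly the same level in control at ZT14 and MCS at ZT2.

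*Hspa8* encodes HSC70, the constitutive HSP70 of the cytosol. Its level was 1082 CPM at ZT2 against 1560 CPM at ZT14 in control, and 1213 CPM at ZT2 against 1621 CPM at ZT14 in MCS. As with the inducible genes, both ZT14 libraries were higher, although the log2 ratios of 0.53 in control (0.49 to 0.56) and 0.42 in MCS (0.38 to 0.45) were smaller. MCS exceeded control by 0.16 at ZT2 (0.12 to 0.20) and 0.06 at ZT14 (0.02 to 0.09) on the log2 scale. With 9371 to 15856 reads the counting error of *Hspa8* is narrow, so these small ratios exceed it, but the spread between mice was not measured. Of the stretches of 150 bases in its transcript, 55.4% also occurred in transcripts of other genes, chiefly the annotated gene *Gm15459*.

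The HSP40 and HSP110 partners of HSP70 were measured through *Dnajb1*, whose J domain stimulates the ATPase of HSP70, and *Hsph1*, which encodes an HSP110 that exchanges its nucleotide. *Dnajb1* had 23.9 CPM at ZT2 against 33.0 CPM at ZT14 in control, and 32.7 CPM at ZT2 against 42.7 CPM at ZT14 in MCS. Like *Hspa8*, it was higher with MCS at both times beyond counting error, with log2 ratios of 0.45 at ZT2 (0.19 to 0.72) and 0.37 at ZT14 (0.16 to 0.59). Its ratios of ZT14 to ZT2 were 0.46 in control (0.20 to 0.73) and 0.38 in MCS (0.16 to 0.61), and the difference between the MCS ratios at ZT14 and ZT2 was -0.08 (-0.41 to 0.26). *Hsph1* had 34.0 CPM at ZT2 against 53.1 CPM at ZT14 in control, and 34.5 CPM at ZT2 against 48.5 CPM at ZT14 in MCS. It was higher at ZT14, at log2 ratios of 0.64 in control (0.43 to 0.86) and 0.49 in MCS (0.28 to 0.71). MCS and control differed by less than counting error at ZT2 (0.02, -0.22 to 0.26) and at ZT14 (-0.13, -0.32 to 0.06). No stretch of 150 bases of either transcript occurred in another gene.

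The cytosolic HSP90 gene *Hsp90aa1* is the heat-inducible of a pair of HSP90 genes. It had 209 CPM at ZT2 against 249 CPM at ZT14 in control, and 215 CPM at ZT2 against 265 CPM at ZT14 in MCS. It was higher at ZT14 by log2 ratios of 0.25 in control (0.16 to 0.34) and 0.30 in MCS (0.21 to 0.39), and its ratios of MCS to control were 0.04 at ZT2 (-0.06 to 0.13) and 0.09 at ZT14 (0.01 to 0.17). In its transcript 36.2% of the stretches of 150 bases were shared with other genes, chiefly the annotated gene *Gm12346*.

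*Hspd1* and *Hspe1* encode HSP60 and HSP10, the barrel and the lid of the mitochondrial chaperonin. *Hspd1* had 89.7 CPM at ZT2 against 89.3 CPM at ZT14 in control, and 81.9 CPM at ZT2 against 89.8 CPM at ZT14 in MCS. *Hspe1* had 22.2 CPM in both control libraries, and 21.6 CPM at ZT2 against 26.9 CPM at ZT14 in MCS. In control, ZT14 and ZT2 differed by less than counting error, with log2 ratios of -0.01 for *Hspd1* (-0.15 to 0.14) and 0.00 for *Hspe1* (-0.29 to 0.29), unlike the cytosolic chaperones above. In MCS the ratio was 0.13 for *Hspd1* (-0.01 to 0.28) and 0.32 for *Hspe1* (0.04 to 0.60). At ZT14 *Hspe1* was higher in MCS than in control by 0.28 (0.01 to 0.55), an interval that nearly reached 0, whereas *Hspd1* gave 0.01 (-0.13 to 0.15).

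These chaperonin genes lie head to head on chromosome 1, *Hspd1* at chr1:55077835-55088243 on the minus strand and *Hspe1* at chr1:55088132-55091307 on the plus strand (GRCm38), and their annotated bodies overlap by 112 bases. The kit marks strand, but whether counting used it is not stated, so reads from the overlap cannot be assigned with certainty. Their promoter windows also overlap and hold the same run of heat shock element units, which lies in an untranslated exon of the annotated transcript *Hspd1-202*. *Hsph1* holds a match of 3 units as well, in the untranslated part of its first exon. The matches are shown, in capitals, because they are the matches of 3 units in the set, and they belong to genes with unlike profiles, *Hspd1* and *Hspe1* at a nearly even level in control and *Hsph1* higher at ZT14. The *Hspe1* and *Hspd1* lines are the strands of one stretch, chr1:55088053-55088082, plus strand for *Hspe1* and minus strand for *Hspd1*, and *Hsph1* is chr5:149636286-149636313, minus strand.
Hspe1: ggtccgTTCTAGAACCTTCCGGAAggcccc
Hspd1: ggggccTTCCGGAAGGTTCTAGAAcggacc
Hsph1: aaaatgctgcagaTTCTGGAAAGTTCtc
In all, 5 of the 6 heat shock genes with a window held a match of 2 units and 3 of 6 one of 3 units, against 14.4% and 0.592% of the 11487 measured genes with a window. *Dnajb1* and *Cirbp* held neither motif in their windows.

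*Cirbp* encodes an RNA-binding protein that is raised by mild cooling and is known to affect the amplitude of the circadian clock in cultured cells. It had 28.9 CPM at ZT2 against 15.2 CPM at ZT14 in control, and 21.2 CPM at ZT2 against 16.6 CPM at ZT14 in MCS. Control at ZT2 was the highest of the 4 libraries, and both ZT14 libraries were below both ZT2 libraries. The log2 ratio of ZT14 to ZT2 was -0.93 in control (-1.24 to -0.62) and -0.36 in MCS (-0.67 to -0.04). With MCS the gene was lower than in control at ZT2, at a log2 ratio of -0.44 (-0.73 to -0.16), and differed by less than counting error at ZT14, at 0.13 (-0.21 to 0.47). The difference of these ratios, ZT14 minus ZT2, was 0.57 (0.14 to 0.997).

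*Rbm3* encodes the other cold-inducible RNA-binding protein, related to CIRBP. It had 135 CPM at ZT2 against 105 CPM at ZT14 in control, and 100.5 CPM at ZT2 against 121 CPM at ZT14 in MCS. Control was thus higher at ZT2 and MCS higher at ZT14. The log2 ratio of ZT14 to ZT2 was -0.37 in control (-0.49 to -0.24) and 0.27 in MCS (0.15 to 0.40), and that of MCS to control was -0.43 at ZT2 (-0.56 to -0.30) and 0.21 at ZT14 (0.09 to 0.34). For *Rbm3* each of these 4 intervals excluded no change, and the MCS ratio at ZT14 exceeded that at ZT2 by 0.64 (0.47 to 0.82). At ZT2, *Cirbp* and *Rbm3* were lower in MCS by nearly the same ratio, although *Rbm3* had 866 and 1170 reads against 183 and 250 for *Cirbp*. The antisense gene *Rbm3os* overlaps *Rbm3* (chrX:8138975-8145880, GRCm38, minus strand) by 452 bases, and at 0.614 to 1.28 CPM it was far below *Rbm3* in every library.

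The octamer TCCCCGCC (GGCGGGGA on the other strand) has been described as a mild cold response element in the flank of *Cirbp*, and it was searched in the same windows. It occurred in 5.38% of all windows and in those of 10.4% of the 11487 measured genes with a window, and in the windows of 4 of the 7 genes of the set, *Cirbp*, *Hspa1a*, *Hspa1b* and *Dnajb1*, so that its presence did not separate the cold-inducible from the heat shock genes. The first 60 bases of the *Cirbp* window (chr10:80167589-80167648, plus strand), which lie outside annotated exons but within the annotated *Cirbp* gene (chr10:80165985-80172786, GRCm38), are shown with the octamer in capitals.
Cirbp: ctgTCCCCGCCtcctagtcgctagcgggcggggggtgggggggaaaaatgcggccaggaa
The match in *Cirbp* is at position -247 from the RefSeq start, near the edge of the window.

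**Figure D2:**
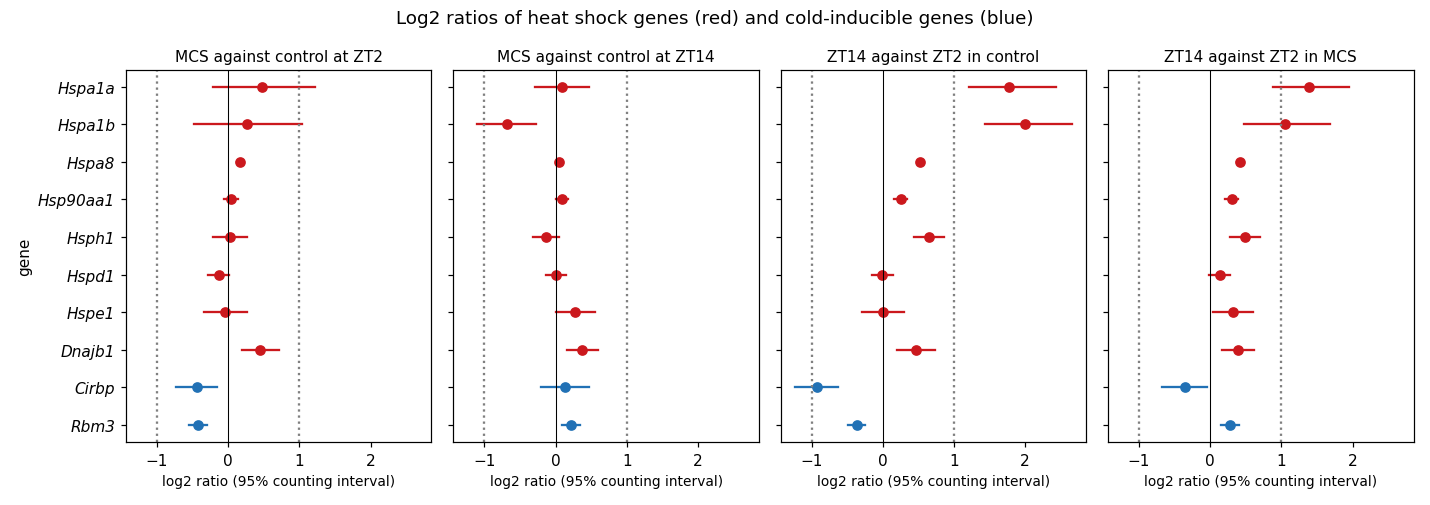
Log2 ratios (horizontal axis) of the 8 heat shock genes in red and the 2 cold-inducible genes in blue (vertical axis) for the 4 comparisons, with 1 library on each side, 95% counting intervals as lines and the 2-fold thresholds dotted. *Hspa1a* and *Hspa1b* passed 2-fold between ZT14 and ZT2 in both arms, *Hspa1b* in MCS only just (log2 1.05, or 0.91 with a pseudocount of 1 CPM), and *Rbm3* lay on opposite sides of 0 in the comparisons of MCS with control.

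Across the 8 heat shock genes the median log2 ratio of ZT14 to ZT2 was 0.49 in control and 0.40 in MCS, while the median over all genes was 0.00 and -0.01. In control 2 of 8 heat shock genes, *Hspa1a* and *Hspa1b*, were called higher past 2-fold, where 3.61% of 12465 genes passed in either direction. Past 1.5-fold, *Hsph1* was added, giving 3 of 8 heat shock genes higher against 4.34% of genes, and *Cirbp* was lower against 7.44% of genes. In MCS the same 2 heat shock genes passed 2-fold, where 5.83% of 12534 genes passed in either direction. With a pseudocount of 1 CPM this count fell to 1, as *Hspa1b* went from log2 1.05 to 0.91, and with a log2 mean above 3 it fell to 1 in each arm. No other gene of the set passed 1.5-fold in MCS, a size reached by 7.69% of genes upward and 10.2% downward. The interval excluded no change in the control comparison for 6 of 8 heat shock genes and both cold-inducible genes, against 29.5% of genes, and in the MCS comparison for 7 of 8 and both, against 44% of genes. A counting interval narrows as reads rise, and these shares are over all genes, not over genes with like numbers of reads.

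Between MCS and control the heat shock genes moved little. Their median log2 ratio was 0.10 at ZT2 (0.04 with *Hspa1a* and *Hspa1b* summed to 1 gene) and 0.07 at ZT14, and the median over all genes was 0.00 at both times. No gene of the set was called past 2-fold at either time, where 2.21% of 12612 genes were called at ZT2 and 3.4% of 12368 genes at ZT14. Past 1.5-fold no gene of the set was found at ZT2, where 4.37% of genes were higher and 3.41% lower, and at ZT14 *Hspa1b* alone was lower, where 6.32% of genes were higher and 5.75% lower. The interval excluded no change at ZT2 for 2 of 8 heat shock genes, *Hspa8* and *Dnajb1*, and for both cold-inducible genes, against 22.5% of genes. At ZT14 it did so for 5 of 8 heat shock genes, of which *Hspa1b* was lower and the other 4 higher, and for *Rbm3* of the cold-inducible genes, against 37.6% of genes. Here too the shares of all genes were not matched for numbers of reads.

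The heat shock genes were set against the cold-inducible genes by the mean log2(CPM + 0.1) of the 8 minus that of *Cirbp* and *Rbm3* in each library. This difference was -0.71 at ZT2 and 0.64 at ZT14 in control, and -0.12 at ZT2 and 0.48 at ZT14 in MCS. Its level depends on the lengths of the genes, so only its change between libraries is read. It was higher at ZT14 than at ZT2 by 1.35 in control (1.15 to 1.55) and by 0.60 in MCS (0.40 to 0.80, normal approximations of counting error). In control both sides contributed, a mean log2 ratio of 0.71 for the heat shock genes and -0.65 for the cold-inducible genes. In MCS the means were 0.56 and -0.04. The pair *Hspa1a* and *Hspa1b* had the largest heat shock ratios in each arm, 1.77 and 1.99 in control and 1.38 and 1.05 in MCS. With the pair summed to 1 gene, the step to ZT14 was 1.19 in control and 0.51 in MCS. With all 8 heat shock genes, the difference at ZT2 was higher in MCS than in control by 0.59 (0.39 to 0.80). Most of this came from the cold-inducible genes, with a mean log2 ratio of -0.43 against 0.16 for the heat shock genes. At ZT14 the change from control to MCS was -0.16 (-0.35 to 0.04), with means of 0.17 for the cold-inducible and 0.01 for the heat shock genes. The change from control to MCS at ZT14 minus that at ZT2 was -0.75 (-1.03 to -0.47), so the step with time was smaller in the MCS libraries.

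The recovered reads were also fitted over the 4 libraries with edgeR's quasi-likelihood test with additive terms for time and MCS, which assumes one effect of MCS for both times and has 1 residual degree of freedom. The control and MCS libraries thus stand in for replicates of a time, so the p-values do not measure the spread between mice. For time it called 271 of 12404 genes (2.18%) at an adjusted p under 0.05, among them *Hspa1a*, at a log2 fold change of 1.59 with edgeR adjusted p = 0.000489, and *Hspa1b*, at 1.54 with edgeR adjusted p = 0.00189. Both were higher in 2 of 2 ZT14 libraries, and over the alternatives run their edgeR adjusted p went down to 1.77e-06 and 1.57e-05. As the division of reads between these copies is uncertain, the calls are not independent, and edgeR was not run on their sum. *Hsph1* (log2 fold change 0.57, edgeR adjusted p = 0.112) and *Cirbp* (-0.64, edgeR adjusted p = 0.149) were not called, nor were *Hspa8* (0.47, edgeR adjusted p = 0.306) and *Dnajb1* (0.42, edgeR adjusted p = 0.405). For MCS edgeR called 23 genes (0.185%) and 0 of the 10, and 1 of the 10, *Dnajb1*, had an unadjusted p under 0.05 (log2 fold change 0.41, edgeR adjusted p = 1), where 299 of all genes, 2.41%, did. The additive fit cannot describe *Rbm3*, whose MCS ratios had opposite signs. It describes *Hspa1b*, *Cirbp* and *Hspa8* only in part. Their MCS ratios at ZT14 minus ZT2 were -0.95 (-1.76 to -0.13), 0.57 (0.14 to 0.997) and -0.11 (-0.16 to -0.06), beyond counting error. The 1.54 of *Hspa1b* thus pools unlike steps, 1.99 in control and 1.05 in MCS.

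Likeness of profiles was measured as the root mean square distance between the log2(CPM + 0.1) values over the 4 libraries, each gene centred on its own mean, among 8631 genes with a mean of at least 10 CPM. The nearest to *Hspa1b*, the heat shock gene with the widest range, were *Cry1* (distance 0.17), *Cry2* (0.18), *Cdc42ep2* (0.18), *Scd2* (0.19) and *Nr1d2* (0.19). *Cry1*, which encodes a cryptochrome, had 8.20 CPM at ZT2 against 27.0 CPM at ZT14 in control, and 10.8 CPM at ZT2 against 22.7 CPM at ZT14 in MCS. *Nr1d2*, which encodes the nuclear receptor REV-ERBβ, had 27.8 and 94.3 CPM in control and 28.7 and 47.6 CPM in MCS, ZT2 before ZT14, the order also used for lists of 4 values below. Thus each of them, like *Hspa1b*, was highest in control at ZT14 and less high in MCS at ZT14. Such sharing follows from the choice of nearest profiles. The profile of *Hspa1b* rests on an uncertain division of reads between the copies. Its copy *Hspa1a* was instead highest in MCS at ZT14 (12.9 against 12.1 CPM for control), within counting error. The sum of both, free of that division, was highest in control at ZT14 (25.7 against 21.4 CPM for MCS), also within counting error. Neither *Hspa1a* nor the sum was compared with other profiles. For *Cirbp* the nearest were *Cxx1b*, *Dgkg*, *Arl4a*, *Tgm2* and *Akap7*, at distances of 0.05 to 0.08, and *Tgm2*, the gene of tissue transglutaminase, had 23.7, 11.97, 16.2 and 11.8 CPM. For *Rbm3* they were *Lmbrd2*, *Tab1*, *Sugt1*, *Trmt44* and *Carkd*, at 0.02 to 0.03, and *Sugt1*, which encodes a co-chaperone of HSP90, had 22.8, 16.9, 16.1 and 19.8 CPM. The distance rests on 4 libraries and is given as a description only.

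The regulators of the heat shock genes were read from a list of 3 genes, *Hsf1*, *Hsf2* and *Hsbp1*, which encode heat shock factors 1 and 2 and a small protein that binds the factors. *Hsbp1*, the most abundant of them, had 40.3 CPM at ZT2 against 44.8 CPM at ZT14 in control, and 44.7 CPM at ZT2 against 42.8 CPM at ZT14 in MCS. Of the list, 0 of 3 passed 1.5-fold in any of the 4 comparisons, a size reached by 3.41% to 10.2% of all genes by comparison and direction. *Hsf1* itself had 33.6, 36.2, 39.4 and 33.5 CPM, so it did not share the step of *Hspa1a* and *Hspa1b*.

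Other chaperones were read from lists of related genes. Of 13 genes for HSP90 and its co-chaperones, 0 passed 1.5-fold in any comparison, where 3.41% to 10.2% of all genes did by comparison and direction. Their median log2 ratios of ZT14 to ZT2 were 0.19 in control and 0.11 in MCS. The most abundant, *Hsp90ab1*, the constitutive HSP90, had 891 CPM at ZT2 against 958 CPM at ZT14 in control, and 931 CPM at ZT2 against 962 CPM at ZT14 in MCS. Among 12 further J-domain proteins and exchange factors, 1 was higher past 1.5-fold in control, *Dnaja4*, against 4.34% of all genes, and 2 in MCS, *Dnaja1* and *Bag1*, against 7.69%, and none was lower. Counts this small in a list of 12 are close to those shares. *Dnaja1*, the most abundant of that list, had 80.0, 94.8, 81.0 and 132 CPM, with MCS at ZT14 the highest. Of 9 other genes of the HSP70 and HSP110 families, 2 passed 1.5-fold upward in control, *Hspa12a* and *Hspa12b*, against 4.34% of all genes, and 0 downward, against 7.44%. In MCS *Hspa12a* and *Hspa2* did so upward, against 7.69%, and *Hspa12b* downward, against 10.2%. *Hspa12a*, a distant relative of HSP70, had 28.9, 72.4, 34.6 and 62.3 CPM, and the most abundant gene of the list, *Hspa4*, an HSP110, had 146, 160, 142 and 162 CPM. Between MCS and control, *Hspa2* was lower at ZT2 (3.94 against 6.12 CPM) and *Hspa12b* at ZT14 (1.12 against 3.84 CPM), the members of these lists past 1.5-fold. Of all genes, 3.41% were lower past 1.5-fold at ZT2 and 5.75% at ZT14. The interval of *Hspa2* (-1.30 to 0.01) included no change and that of *Hspa12b* (-2.90 to -0.76) did not. The genes *Dnaja4*, *Bag1*, *Hspa12a*, *Hspa12b* and *Hspa2*, and *Hsf1*, *Cct3*, *Cct4*, *Cct7*, *Fosb*, *Mertk*, *Adgre1*, *Icam2*, *Cd68*, *Gata6*, *Retnlg*, *Hspb1*, *Serpinh1*, *Hspb8* and *Hbb-bt*, were chosen after their values were seen.

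The 8 subunits of TRiC, the cytosolic chaperonin that folds actin and tubulin, had a summed level of 831 CPM at ZT2 against 828 CPM at ZT14 in control, and 739 CPM at ZT2 against 1010.3 CPM at ZT14 in MCS. They were lower with MCS at ZT2 in 8 of 8 genes (median log2 ratio -0.19) and higher at ZT14 in 8 of 8 (median 0.28), the directions that *Rbm3* showed, except that with library totals without *Rn45s* 7 of 8 were lower at ZT2 and *Cct4* was at 0.00. None of these ratios passed 1.5-fold, where 3.41% of all genes did downward at ZT2 and 6.32% upward at ZT14. Between ZT14 and ZT2 the median log2 ratio of the subunits was 0.02 in control and 0.47 in MCS, the latter above the 0.40 of the 8 heat shock genes, with 8 of 8 subunits higher in MCS and 2 of 8, *Cct3* and *Cct7*, past 1.5-fold, against 7.69% of all genes. *Cct5*, the most abundant subunit, had 130 CPM at ZT2 against 136 CPM at ZT14 in control, and 116 CPM at ZT2 against 163 CPM at ZT14 in MCS. In the endoplasmic reticulum list of 6 genes, *Hsp90b1* was the most abundant, with 972, 888, 970 and 933 CPM. In this list 1 gene passed 1.5-fold in any comparison among those with a log2 mean above 0. It was *Serpinh1*, lower at ZT14 in control at 0.330 against 1.73 CPM, that is, on few reads. Past 1.5-fold, 7.44% of all genes were lower in that comparison. The 4 small heat shock protein genes were low, with summed levels of 6.47 and 3.95 CPM in control and 7.19 and 5.01 CPM in MCS, lower at ZT14 in both arms, unlike the sum of the heat shock genes of the set. *Hspb1* passed 1.5-fold downward in control, against 7.44% of all genes, and *Hspb6* in MCS, against 10.2%, each with an interval that included no change. *Hspb6* was the most abundant, and *Hspb8* had 0 reads in control at ZT14.

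In a list of other temperature-responsive RNA-binding and splicing genes, *Clk1*, a kinase of splicing factors and the most abundant of the list, had 215, 199, 227 and 169 CPM. The list was lower at ZT14 in 4 of 5 genes in control (median log2 ratio -0.11) and in 5 of 5 in MCS (median -0.41), the direction of *Cirbp*. Between MCS and control its median was -0.05 at ZT2 and -0.08 at ZT14.

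Values that moved beside these results are given without a test of their part in them. A list of 12 immediate early genes, which respond within minutes to stimulation and handling of cells, had a summed level of 669 CPM at ZT2 against 886 CPM at ZT14 in control, and 710.1 CPM at ZT2 against 962 CPM at ZT14 in MCS, with *Btg2* the most abundant at 161, 180.2, 147 and 224 CPM. Of these, 6 of 12 were higher past 1.5-fold at ZT14 in control, against 4.34% of all genes, and 0 lower. In MCS 3 of 12 were higher, against 7.69% of all genes, and 1, *Fosb*, was lower, against 10.2%. *Fosb*, with 1.963, 3.84, 4.52 and 2.56 CPM, was also higher with MCS at ZT2, at a log2 ratio of 1.16 (0.35 to 2.12). *Egr1* had 11.2, 32.4, 12.2 and 13.4 CPM and *Nr4a1* 7.39, 23.0, 9.74 and 12.9 CPM, both lower in MCS than in control at ZT14, as *Hspa1b* was. *Dusp1*, with 139, 123, 124 and 224 CPM, and *Atf3*, with 11.2, 16.3, 13.9 and 24.9 CPM, were higher in MCS at ZT14. Whether handling had a part in the levels of the heat shock genes was not tested.

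The sorted cells carried macrophage markers in every library, 8 of 8 genes, with a sum between 24992 and 27583 CPM and *Lyz2*, at 17344 to 18847 CPM, making up most of it. At ZT14 against ZT2, 6 of 8 were higher and 2 lower in control, and likewise 6 and 2 in MCS (5 and 3 in each with library totals without *Rn45s*). *Mertk* was lower at ZT14 past 1.5-fold in both arms, like *Cirbp* in direction, with 188, 97.7, 183 and 117 CPM. *Adgre1*, which encodes F4/80, had 1327, 1361, 1086 and 1900 CPM, and *Icam2* had 237, 247, 210.4 and 323 CPM, both lower with MCS at ZT2 and higher at ZT14, as *Rbm3* was, and past 1.5-fold higher at ZT14 within MCS. The list did not move as one, since with MCS 2 of 8 were higher and 6 lower at ZT2 (3 and 5 without *Rn45s*), and 7 higher and 1 lower at ZT14, and *Cd68*, with 285, 299, 300.1 and 215 CPM, went the other way, while *Gata6*, with 69.1, 89.0, 80.9 and 117 CPM, was higher with MCS at both times. Markers of other cells were present as well. Mast cell genes (3 analysed, *Cma1* the most abundant) summed to 1217 CPM at ZT2 against 796 CPM at ZT14 in control, and 1481 CPM at ZT2 against 626 CPM at ZT14 in MCS, which is lower at ZT14 like *Cirbp*, and higher rather than lower with MCS at ZT2. B cell genes (3, *Cd79a* the most abundant, with 321, 369, 316 and 233 CPM) summed to 783, 931, 741 and 658 CPM. T and natural killer cell genes (4, led by *Cd3e*) summed to 22.6, 10.3, 26.9 and 13.9 CPM, and mesothelial and fibroblast genes (5, led by *Dcn*) to 16.6, 5.27, 20.3 and 8.59 CPM, both lower at ZT14. Neutrophil genes (3, led by *S100a9*) summed to 14.9, 16.6, 59.3 and 10.7 CPM, with *S100a9* at 6.70, 9.23, 33.5 and 1.23 CPM and *S100a8* at 5.89, 5.16, 18.6 and 3.58 CPM. The other of them, *Retnlg*, at 2.31, 2.20, 7.19 and 5.93 CPM, was higher with MCS at ZT14 as well, with a log2 ratio of 1.39 (0.68 to 2.24) against -2.81 for *S100a9*. Red blood cell genes (5, led by *Hbb-b1* with 0.693, 0.220, 12.6 and 37.4 CPM) summed to 3.23, 1.32, 36.4 and 110 CPM, with *Hba-a1* at 1.62, 0.220, 22.0 and 19.6 CPM and *Hba-a2* at 0 in each library except MCS at ZT14, where it had 49.5 CPM, while *Hbb-bt* was at 0 in both control libraries. *Ighm*, *Ly6g*, *Prg2*, *Epx* and *Hbb-bs* of these lists were not found by name among the 15298 genes measured, so they were not analysed here. The part of these cells in the levels of the heat shock and cold-inducible genes was not tested, and in bulk RNA fewer cells of a type and less RNA per cell cannot be told apart.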

How the data were processed

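Strand-specific libraries of ribosome-depleted RNA were sequenced by the authors as paired reads of 150 nt. The submitters' processing notes name Trimmomatic 0.38, RSEM 1.3.0, Bowtie2, edgeR and mm10 (GRCm38). The deposited values are CPM normalized by the authors with edgeR. Dividing each column by its smallest step gave whole reads, within 0.05 read, for 100% of the values, and any rounding of RSEM estimates by the authors is included. A count of 0 allows up to 3 reads, 0.307 to 0.348 CPM by library.

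Log2 ratios used a pseudocount of 0.1 CPM, and no test between single libraries was made. The count test was edgeR's quasi-likelihood test on recovered reads, with at least 40 reads over the 4 libraries and the effective library sizes behind the CPM. It called 271 of 12404 genes for time and 23 for MCS and was tested on simulated data. The alternatives were pseudocounts of 1 and 0.01 CPM, rescaling to a median ratio of 0, TMM factors, library totals without *Rn45s*, *Hspa1a* and *Hspa1b* summed, a 1.5-fold threshold, no minimum mean and a log2 mean above 3. TMM factors and no read minimum for edgeR were added after the data were seen.

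Named genes were the 10 members, the most abundant gene of each list, genes of the lists past 1.5-fold in a comparison of MCS with control at a log2 mean above 3, and the 5 nearest profiles. A gene of the list of temperature-responsive RNA-binding and splicing genes is not reported here. The members and lists were chosen with earlier results of these data known. Coordinates, transcript lengths and promoters were taken from GENCODE vM21 and RefSeq. Software was Python 3.11.15, numpy 2.4.6, pandas 2.3.3, scipy 1.17.1, matplotlib 3.10.9, R 4.3.3 and edgeR 4.0.16.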

Additional observations from a re-analysis of the deposited data

Results flagged for a closer look

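Among the 10 genes, only *Rbm3* had MCS ratios of opposite sign at the 2 times, each beyond counting error. It was lower in MCS at ZT2, at 100.5 against 135 CPM, and higher in MCS at ZT14, at 121 against 105 CPM, and the log2 ratio at ZT14 exceeded that at ZT2 by 0.64. With 1 library per condition this difference was not tested between mice. *Cirbp* had ratios of opposite sign as well, but at ZT14 its interval included no change. The pattern is not particular to *Rbm3*: 5.32% of 12236 genes were lower in MCS at ZT2 and higher at ZT14 beyond counting error. So were 5 of 8 TRiC subunits, *Bag1*, *Hspa5* (log2 ratios -0.29 and 0.32) and *Hyou1* (-0.17 and 0.27). Outside the chaperones, 4 of 8 macrophage markers, *Dusp1* and *Btg2* showed it as well. The reverse held for 4.88% of genes, among them 3 of 3 mast cell genes, 2 immediate early genes, *S100a9* and *Hspa12a*. The genes named here were picked out after their values were seen.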

How the results depend on the processing

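Of 292 recomputed values, 284 stayed within their counting interval (counts within 1.5 times), 8 moved, among them *Hspa8* between ZT14 and ZT2 in MCS to 0.38 with library totals without *Rn45s*, and 0 changed direction beyond counting error. The 2 heat shock genes past 2-fold between ZT14 and ZT2 became 1 in MCS with a pseudocount of 1 CPM, 1 in each arm when *Hspa1a* and *Hspa1b* were summed to 1 gene, and 1 in each arm with a log2 mean above 3. For MCS against control at ZT14 the 0 genes past 2-fold became 1, *Hspa1b*, at 1.5-fold. For these counts the construction of the alternatives, which merge the pair, shift a limit near its values or, with the larger pseudocount, shrink the ratio itself (*Hspa1b* in MCS from 1.05 to 0.91), accounts for the moves. For *Hspa8* the new library totals do. The edgeR test without the read minimum, added after the data were seen, called 43 genes for MCS in place of 23, the cause of which was not tested. No paired analysis was possible because no replicate number links libraries within a single comparison, while the additive edgeR fit compares the times within arms.

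The ratios of *Cirbp* and *Rbm3* and the differences between heat shock and cold-inducible genes did not move beyond counting error under any alternative run. Rescaling a library nearly cancels in those differences, so rescaling, TMM factors and totals without *Rn45s* could hardly move them, though they count among the 284. The medians of the heat shock genes were judged by the counting error of the mean ratio, as none was computed for a median. None moved beyond it, although the median for MCS against control at ZT2 went from 0.10 to 0.04 with *Hspa1a* and *Hspa1b* summed. Depth limits *Hspa1a* and *Hspa1b*, with 29 reads in the lowest library, and without replicates the spread between mice is unknown for every gene.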
